A study of Mus musculus with 18 samples.

Results

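The 38 genes described here carry glucose into the cell, split it to pyruvate and turn pyruvate to lactate. They also hold pyruvate back from oxidation and run the pentose phosphate branch. They were chosen by symbol from a list of enzymes, carriers and regulators, and 38 of the 18397 genes in the deposited gene table match that list. Each gene that passed a filter on low counts was tested, which left 37 members among 12245 tested genes; Pdk4, with at most 0.06 TPM in any library, was not tested. RNA from cells labelled RAW264.7, the name of a mouse macrophage line transformed by Abelson virus, was sequenced in 18 libraries of 6 groups with 3 libraries each. The groups were a soft matrix (Soft), a stiff matrix (Stiff), either matrix with a condition named mito (Soft+mito, Stiff+mito), and either matrix with a condition named TW (Soft-TW, Stiff-TW). The sources used here do not give the stiffness of the matrices, the time in culture or the meaning of mito and TW, and no genotype, treatment agent or age is attached to any group. The title of the series names stiffness, transfer of mitochondria and metabolic reprogramming, and the comparisons ask how the levels of these genes differed by matrix, mito and TW.

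Glycolysis splits glucose in the cytosol through a run of enzymes, several of which exist as isozymes from separate genes with different regulation. Hexokinase traps glucose, phosphofructokinase is the main point of control, and lactate dehydrogenase with its monocarboxylate carriers lets the pathway run when pyruvate is not oxidised. Pyruvate dehydrogenase kinases switch off the pyruvate dehydrogenase complex, while the pentose phosphate branch yields NADPH and ribose. Many glycolytic genes are textbook targets of the hypoxia-inducible factors, which bind a short motif, and activated macrophages are known for high glycolysis.

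Against the label, the RNA held little of the macrophage markers. All 19 listed markers were in the table, 2 of them (Cd14 and Lyz2) had a mean of at least 10 TPM, and the group means of Csf1r, the receptor of macrophage colony-stimulating factor, ran from 0.0533 to 0.830 TPM. Ptprc, which marks white blood cells, reached 0.183 TPM in Soft-TW, its highest group. The intermediate filament gene Vim stood at 2166 TPM in Soft and the epithelial keratin Krt8 at 703 TPM. The cells are therefore called by their label only. Library totals of estimated counts ran from 16054637 to 16887244, so depth was nearly even. No source used here says whether the 3 libraries of a group came from separate cultures, so every p-value rests on a spread that may be only technical. The fitted spread between libraries of a group, beyond counting noise, was small, with a common coefficient of variation of 0.0175. In bulk RNA, fewer cells of a kind and less RNA per cell cannot be told apart.

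Sequences of 6 promoters and, further on, of 2 alternative exons are shown because the results turn on these genes. Of the members with a mean of at least 10 TPM, Eno2, Slc2a1 and Hk2 had the largest rises in Soft-TW, Ldha and Pgk1 rose on both matrices and are textbook hypoxia-responsive genes, and G6pdx fell on both. Each run is the 250 bases before the annotated start, 5′ to 3′ on the gene's strand, from RefSeq on GRCm38.p6 (the mm10 build). The capitals mark ACGTG, the core of the hypoxia-response element, or GCGTG, a variant of it, on either strand (CACGT and CACGC are their reverse complements).
Slc2a1 (chr4:119108495-119108744, + strand): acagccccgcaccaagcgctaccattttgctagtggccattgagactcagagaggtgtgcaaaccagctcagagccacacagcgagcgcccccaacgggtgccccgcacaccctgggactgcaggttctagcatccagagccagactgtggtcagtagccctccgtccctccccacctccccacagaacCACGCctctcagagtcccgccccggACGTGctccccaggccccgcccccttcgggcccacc
Hk2 (chr6:82774455-82774704, - strand): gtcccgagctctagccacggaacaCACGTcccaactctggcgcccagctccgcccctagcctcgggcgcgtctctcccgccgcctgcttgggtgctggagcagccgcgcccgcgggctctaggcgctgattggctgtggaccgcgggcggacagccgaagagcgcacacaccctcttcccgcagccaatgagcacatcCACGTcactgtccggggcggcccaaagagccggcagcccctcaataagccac
Pgk1 (chrX:106186850-106187099, + strand): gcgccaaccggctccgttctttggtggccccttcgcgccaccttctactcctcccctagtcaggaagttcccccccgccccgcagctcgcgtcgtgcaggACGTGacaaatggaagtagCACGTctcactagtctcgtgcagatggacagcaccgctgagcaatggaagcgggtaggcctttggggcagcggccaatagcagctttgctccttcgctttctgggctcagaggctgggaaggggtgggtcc
Ldha (chr7:46845554-46845803, + strand): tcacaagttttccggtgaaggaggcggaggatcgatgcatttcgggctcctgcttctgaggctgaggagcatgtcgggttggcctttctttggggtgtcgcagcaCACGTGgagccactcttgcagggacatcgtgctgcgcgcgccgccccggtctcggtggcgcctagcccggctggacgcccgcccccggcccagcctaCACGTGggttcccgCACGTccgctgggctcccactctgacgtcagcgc
Eno2 (chr6:124769674-124769923, - strand): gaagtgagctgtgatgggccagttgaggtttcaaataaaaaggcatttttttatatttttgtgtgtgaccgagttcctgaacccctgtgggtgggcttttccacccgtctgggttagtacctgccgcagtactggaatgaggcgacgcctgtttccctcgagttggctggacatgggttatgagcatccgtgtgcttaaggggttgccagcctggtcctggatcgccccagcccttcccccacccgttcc
G6pdx (chrX:74428881-74429130, - strand): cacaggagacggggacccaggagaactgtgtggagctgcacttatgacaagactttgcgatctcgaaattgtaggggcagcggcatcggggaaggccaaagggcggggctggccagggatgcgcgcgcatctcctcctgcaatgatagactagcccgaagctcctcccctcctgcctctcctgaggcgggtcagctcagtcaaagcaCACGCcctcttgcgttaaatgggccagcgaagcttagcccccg

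The annotation has 2 windows for Ldha. The one shown held 2 copies of CACGTG, which is also the E-box read by Myc and which contains ACGTG on both strands, and 1 further CACGT; the other (chr7:46846832-46847081) held 1 GCGTG and no ACGTG. Hk2 and Pgk1 held 2 ACGTG matches each, Slc2a1 held 1 ACGTG and 1 GCGTG, G6pdx held 1 GCGTG, and the window of Eno2 held neither motif. Windows were found for 37 of the 38 members, 57 windows in all, and Slc2a3 had none. ACGTG was in 18 of the 57 windows (14 genes), against 16.6% of all 32851 windows of the same length. GCGTG was in 31 of the 57 windows (26 genes), against 28.2% of all windows, and CACGTG in 6 windows of 6 genes, against 6.02%. Among members not shown that rose with TW on both matrices, Pdk1, Gpi1, Gapdh, Pfkp, Hk1, Pfkl and Eno1 held no ACGTG in any window. Pgam1, Aldoa, Pfkm, Pdk2, Pdk3 and Pfkfb3, which rose too, held it in at least 1 window each. The genes named are not all members that rose. Any link between the motif and the rises was not tested. A match describes the letters of the window and is not a measured binding site.

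Most glycolysis genes rose with TW on both matrices, while the NADPH-making genes of the pentose phosphate branch fell. In Soft-TW against Soft, 23 members rose and 8 fell at an adjusted p under 0.05 (edgeR quasi-likelihood test, Benjamini-Hochberg over all tested genes), where 28.9% and 28.0% of all tested genes rose and fell. In Stiff-TW against Stiff, 24 rose and 9 fell, against 35.5% and 34.1% of all genes. The median member stood at 0.34 on the log2 scale in Soft-TW against Soft and at 0.50 in Stiff-TW against Stiff, while the medians of all tested genes were -0.00373 and 0.00909. A rise of at least 2-fold was seen in 9 members on the soft matrix and 8 on the stiff one, and no member fell by that much. The 9 on soft included Aldoc, which had few counts. Of all tested genes, 2.50% rose and 0.408% fell by at least 2-fold on soft, and 4.16% and 1.98% on stiff (called and past that size). Of the members, 22 rose and 7 fell in both comparisons, which share no library; of all tested genes, 23.7% rose and 22.2% fell in both. Summed over the members, the level rose from 23410 ± 51.8 TPM in Soft to 35920 ± 174 in Soft-TW, and from 18540 ± 213 in Stiff to 35150 ± 36.7 in Stiff-TW (mean ± SD, n = 3, as for every level and share given with ±). Since TPM shares out a fixed total, a rise of such abundant genes lowers the share left for others. The members held 2.10% of the estimated counts in the first Soft library and 3.29% in the first Soft-TW library.

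**Figure D1:**
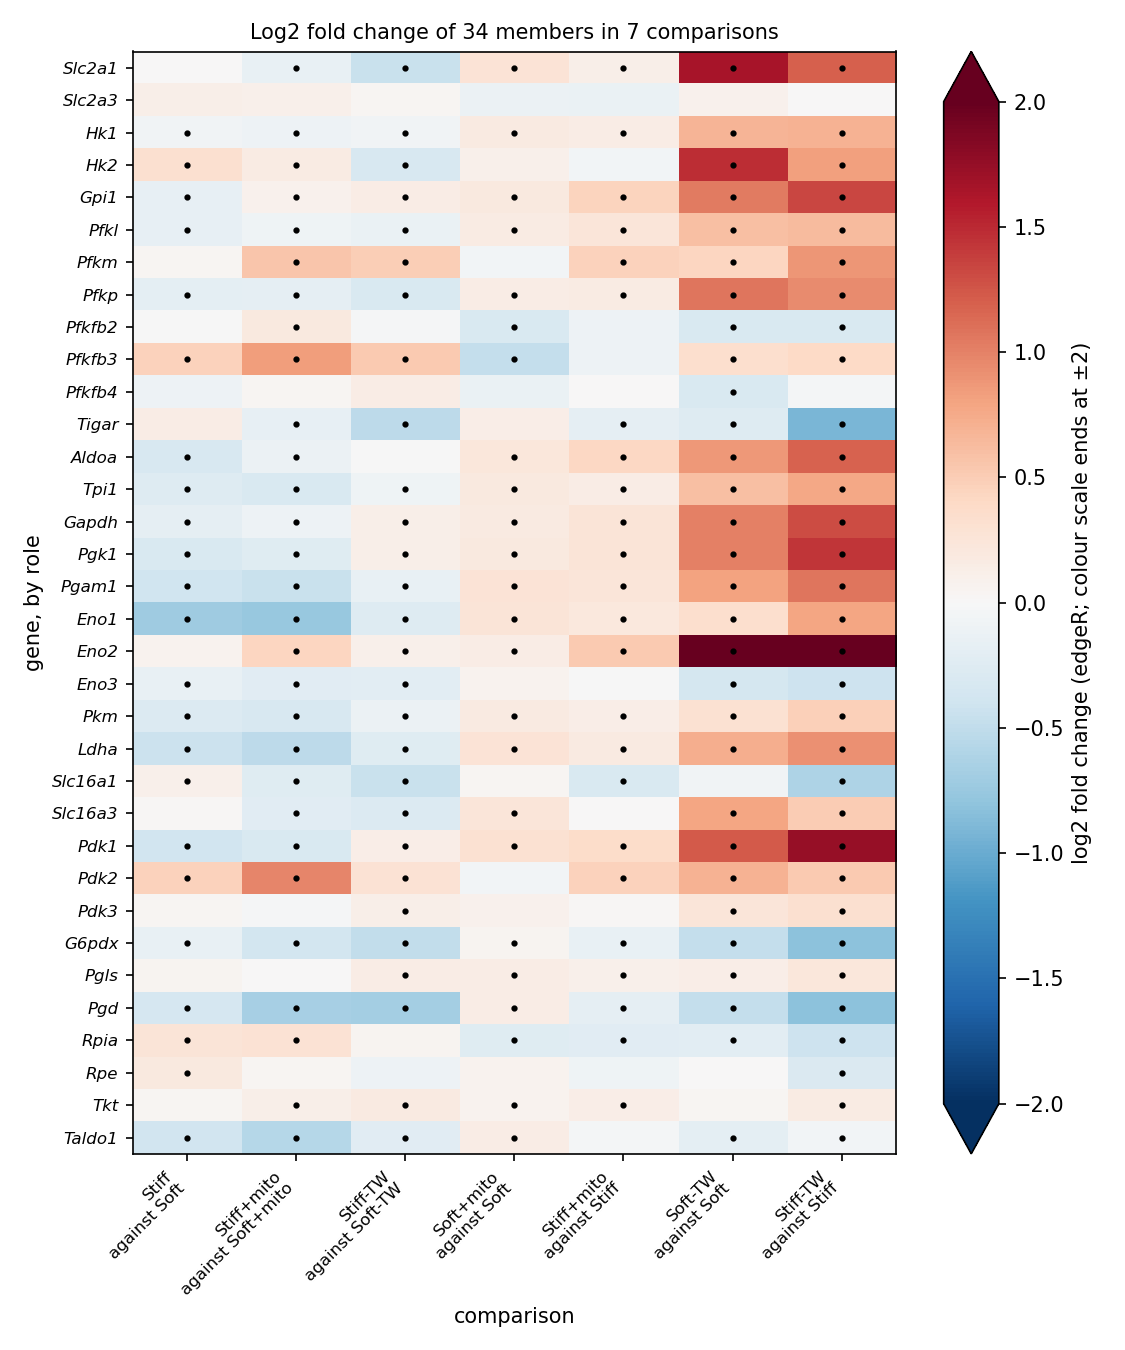
Log2 fold change (colour, edgeR) of 34 members in the 7 comparisons between groups, ordered by role; a dot marks an adjusted p under 0.05. Aldoc, Ldhb and Pfkfb1, with few counts, and the untested Pdk4 are left out, and the TW columns hold the deepest colours, with red for most glycolysis genes and blue for G6pdx, Pgd, Eno3 and Tigar.

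The changes with mito were smaller. In Soft+mito against Soft, 21 members rose and 3 fell (14.8% and 11.9% of all tested genes), with a member median of 0.15 beside 0.00726 for all genes. In Stiff+mito against Stiff, 19 rose and 5 fell (15.6% and 17.8% of all genes), with a member median of 0.13 beside 0.000582. No member reached a 2-fold change in either comparison. The count of rises on the soft matrix depended on the scale. On log2(TPM + 1), 14 members rose and 4 fell, and of all genes 463 rose and 3232 fell, where the count model had 1817 and 1457. Library totals as the scale gave 18 and 3 members, and 1241 and 2000 genes. The median of all genes lay at -0.0724 on log2(TPM + 1). For Soft-TW against Soft the members' split was 21 to 10 on log2(TPM + 1), and that of all genes 2092 to 5173 in place of 3538 to 3426, or 2790 to 4442 with library totals.

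Macrophage markers moved with both conditions. Their summed level ran over 41.4 to 42.7 TPM in the Soft libraries, 51.0 to 55.8 in Soft+mito and 88.4 to 92.3 in Soft-TW, and over 33.4 to 38.1 in Stiff, 42.4 to 45.8 in Stiff+mito and 58.9 to 60.4 in Stiff-TW. Of the 10 markers tested, 9 rose in each TW comparison and 6 in each mito comparison, and none fell. Of all tested genes, 28.9% rose with TW on soft and 35.5% on stiff, and 14.8% and 15.6% rose with mito. The defining markers Adgre1, Ptprc and Csf1r were at most 1.1 TPM in every library, and no marker was at 0 in all 18 libraries. The summed level of the 10 fibroblast and mesenchymal markers, most of it Vim, ran over 2358 to 2446 TPM in Soft and 3283 to 3358 in Soft-TW, and over 1792 to 1831 in Stiff and 4717 to 4752 in Stiff-TW. The part of other cells in the results on mito and TW was not tested.

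The stiff matrix went with lower levels. In Stiff against Soft, 17 members fell and 6 rose, where 24.7% and 29.1% of all tested genes did, and the member median was -0.0769 beside 0.0150. The 17 that fell included 8 of the 10 lower glycolysis genes. On log2(TPM + 1), 18 members fell and 3 rose, and of all genes 4253 fell and 2317 rose, in place of 3024 and 3564 (3740 and 2945 with library totals). In Stiff+mito against Soft+mito, 20 fell and 11 rose (30.8% and 32.7% of all genes, member median -0.11 beside 0.0135). In Stiff-TW against Soft-TW, 17 fell and 11 rose (26.7% and 27.6% of all genes, member median -0.0678 beside 0.00212). Of the 17 members lower in Stiff than in Soft, 16 were also lower in Stiff+mito than in Soft+mito. In Stiff-TW against Soft-TW, 12 of the 17 were lower and 4 were higher (Gpi1, Gapdh, Pgk1 and Pdk1). The same overlap was not counted over all tested genes, so it cannot be called particular to the members. Between matrices the largest called change was that of Aldoc, with few counts, at 1.57 in the mito groups. The next largest were Pdk2 at 0.98 and Pfkfb3 at 0.84 there.

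Markers of other cells differed between the matrices too. The epithelial markers, nearly all Krt8 and Krt18, summed to 999 to 1029 TPM in Soft, 1031 to 1044 in Soft+mito and 764 to 784 in Soft-TW, and to 696 to 714 in Stiff, 733 to 759 in Stiff+mito and 671 to 683 in Stiff-TW; of the 12 listed, 2 were tested, and both were lower in Stiff than in Soft and in Stiff+mito than in Soft+mito, and 1 in Stiff-TW than in Soft-TW. Of the 7 fibroblast and mesenchymal markers tested, 5 were higher and 2 lower in Stiff than in Soft, 5 higher and 1 lower with mito, and all 7 higher with TW. Of the 10 macrophage markers tested, 1 was higher and 4 lower in Stiff than in Soft, 1 higher and 3 lower with mito, and none higher and 6 lower with TW. The part of these cells in the results between matrices was not tested. The shares of all tested genes called in each pair of groups stand with the member counts above.

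Slc2a1 encodes GLUT1, the widespread basal glucose transporter. It stood at 132, 126 and 124 TPM in the 3 Soft libraries, 149, 144 and 140.2 in Soft+mito and 372, 371 and 369 in Soft-TW. On the stiff matrix the values were 124, 122 and 117 TPM in Stiff, 135, 130.1 and 129.8 in Stiff+mito and 272, 264 and 269 in Stiff-TW. All TW libraries lay far above all others, and those of Soft-TW lay above those of Stiff-TW. Relative to Soft, Soft-TW was 3.14-fold higher (log2 1.65 ± 0.023, where ± is an approximate standard error; adjusted p = 4.14e-86). Relative to Stiff, Stiff-TW was 2.29-fold higher (log2 1.19 ± 0.024, adjusted p = 1.17e-71). With mito it rose by 0.28 on soft and 0.12 on stiff; between Stiff and Soft it was not called (0.01, and -0.073 on log2(TPM + 1), where it was called lower). Slc2a3 encodes GLUT3, a transporter of high affinity, and stayed between 3.72 and 4.38 TPM in the group means, with no call in any comparison. Slc2a1 made up 96.8 ± 0.588% of their sum in Soft and 98.9 ± 0.0458% in Soft-TW.

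Hk1 is the housekeeping hexokinase of mitochondria, and Hk2 the inducible one. All 6 genes of upper glycolysis, which include Gpi1 and the 3 phosphofructokinases, rose in both TW comparisons. Of all tested genes, 23.7% rose in both. Hk1 stood at 65.7, 62.2 and 62.2 TPM in Soft and 96.4, 92.0 and 92.6 in Soft-TW, and at 54.1, 57.1 and 57.8 in Stiff and 88.5, 89.7 and 88.3 in Stiff-TW. Its rise was nearly equal on both matrices, at 0.68 and 0.69. Hk2 stood at 13.2, 13.4 and 14.0 TPM in Soft and 34.2, 34.7 and 34.3 in Soft-TW, and at 15.9, 15.6 and 16.1 in Stiff and 28.4, 27.0 and 26.6 in Stiff-TW. No TW library of Hk2 overlapped another group, and the rise was larger on soft (log2 1.48 ± 0.038) than on stiff (log2 0.83 ± 0.038), a difference of -0.65 ± 0.055 (interaction, adjusted p = 6.06e-19). Hk2 was 0.33 higher in Stiff than in Soft but -0.32 in Stiff-TW against Soft-TW, so the order of the matrices turned. The share of Hk2 in the sum of the 2 hexokinases grew from 17.6 ± 0.8% in Soft to 26.9 ± 0.62% in Soft-TW, and from 22.0 ± 0.659% in Stiff to 23.5 ± 0.675% in Stiff-TW. Hk2 was not called with mito (log2 0.10 on soft, -0.06 on stiff).

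Gpi1 encodes glucose phosphate isomerase, which makes fructose phosphate from glucose phosphate. It stood at 449, 432 and 428 TPM in Soft, 479, 472 and 456 in Soft+mito and 833, 821 and 834 in Soft-TW. The stiff series was 367, 366 and 372 TPM in Stiff, 499, 491 and 514 in Stiff+mito and 900, 895 and 921 in Stiff-TW. The 6 groups did not overlap, Stiff being the lowest and Stiff-TW the highest. Its rise was larger on the stiff matrix with both conditions: 0.20 on soft and 0.45 on stiff with mito (difference 0.25 ± 0.028), and with TW 1.04 and 1.34 (difference 0.30 ± 0.027).

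Phosphofructokinase has a liver, a muscle and a platelet isozyme. Pfkl, the most abundant, stood at 124, 121 and 120.4 TPM in Soft and 168, 171 and 172 in Soft-TW, and at 102, 104 and 100.4 in Stiff and 154, 154 and 153 in Stiff-TW. Its rises with TW, 0.60 on soft and 0.63 on stiff, were close to each other, and with mito it rose by 0.17 and 0.25. Pfkp stood at 75.2, 72.8 and 71.9 TPM in Soft and 145, 144 and 143 in Soft-TW, and at 61.2, 58.5 and 61.8 in Stiff and 117, 115 and 112 in Stiff-TW. It rose the most of the 3 with TW (1.06 and 0.95), and its share of their sum went from 32.7 ± 0.0868% in Soft to 41.0 ± 0.556% in Soft-TW. Pfkm, the least abundant, stood at 31.7, 28.7 and 28.2 TPM in Soft, 27.2, 27.7 and 25.0 in Soft+mito and 35.6, 35.9 and 38.9 in Soft-TW. Its stiff values were 28.1, 27.9 and 29.7 TPM in Stiff, 40.5, 37.8 and 39.6 in Stiff+mito and 51.1, 51.6 and 50.6 in Stiff-TW. Stiff and Soft overlapped for the muscle isozyme (log2 0.04), while Stiff+mito lay above Soft+mito by 0.55 ± 0.043 and Stiff-TW above Soft-TW by 0.49 ± 0.039. The interaction with the matrix was 0.52 ± 0.063 for mito (adjusted p = 7.57e-11) and 0.46 ± 0.06 for TW (adjusted p = 2.78e-10).

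**Figure D2:**
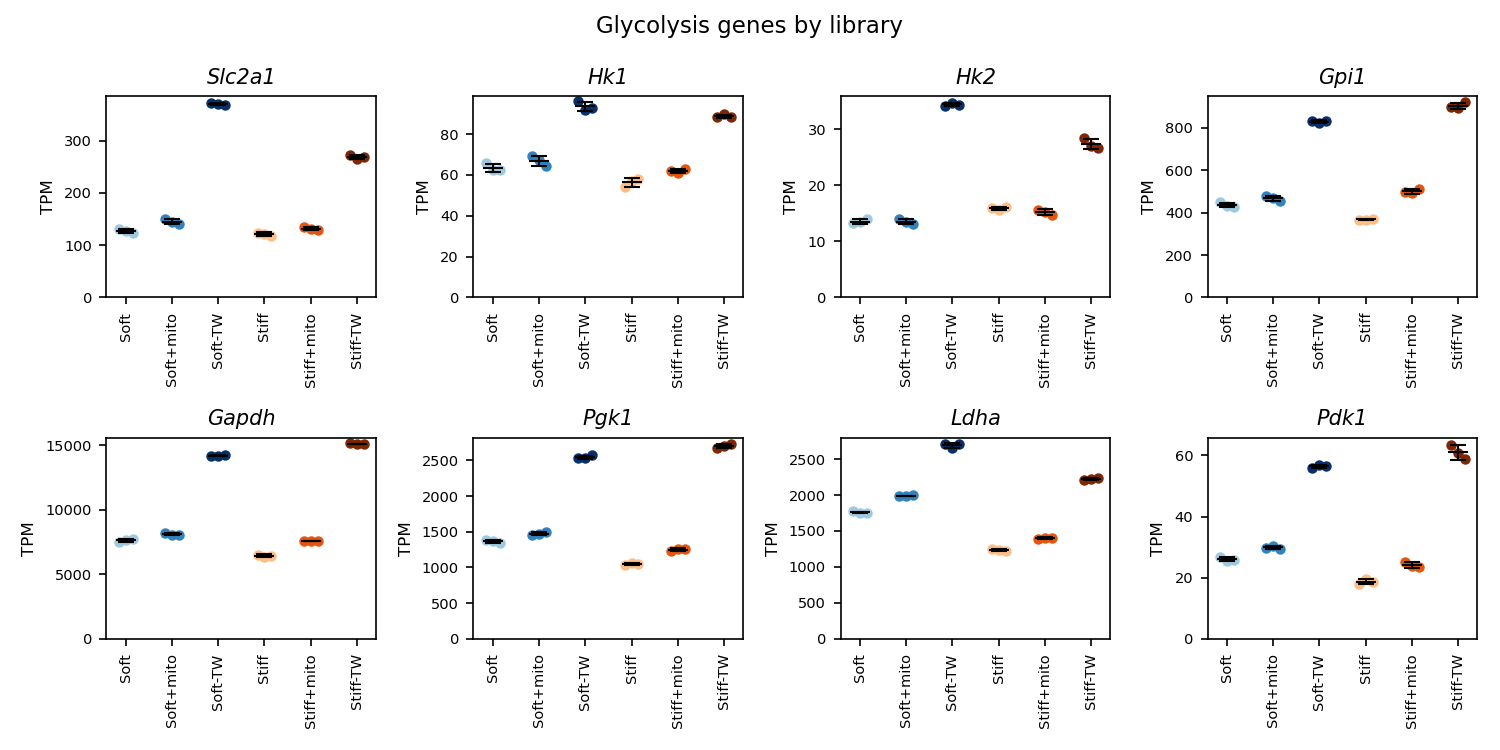
TPM of 8 genes in each library (points, 3 per group) with the group mean and SD (bars); each vertical axis starts at 0. The TW groups are the highest for all 8 genes, with Soft-TW above Stiff-TW for Slc2a1, Hk1, Hk2 and Ldha and Stiff-TW above Soft-TW for Gpi1, Gapdh, Pgk1 and Pdk1.

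The Pfkfb genes make or break down the sugar diphosphate that activates phosphofructokinase, and Tigar breaks it down and so turns sugar toward the pentose branch. They were low, with group means from 1.32 to 8.79 TPM. Pfkfb2, the leading one, stood at 9.42, 8.74 and 8.21 TPM in Soft, 6.68, 7.25 and 6.11 in Soft+mito and 6.44, 6.41 and 7.46 in Soft-TW. On the stiff matrix it stood at 8.17, 8.47 and 8.29 TPM in Stiff, 8.37, 7.25 and 7.02 in Stiff+mito and 6.90, 6.55 and 5.81 in Stiff-TW. It fell with TW on both matrices (-0.30 and -0.31) and with mito on soft (-0.31). Pfkfb3, the inducible form that favours the activator, rose with TW by 0.33 on soft, where the libraries overlapped, and by 0.40 on stiff; it fell (log2 -0.48) in Soft+mito, and stiff exceeded soft by 0.46, 0.84 and 0.53 in the 3 pairs of groups. The rise on soft lost its call on log2(TPM + 1) and without either of 2 libraries left out in turn. Pfkfb4 fell in Soft-TW alone among the comparisons (-0.30), a call lost with DESeq2 and without 1 library. Pfkfb1, at group means from 1.32 to 1.97 TPM, was called once, at 0.62 in Stiff-TW against Stiff, which DESeq2 did not call. Tigar went from 7.93 ± 0.235 TPM in Soft to 6.23 ± 0.153 in Soft-TW, and from 8.58 ± 0.871 in Stiff to 4.10 ± 0.186 in Stiff-TW. Its fall on stiff (-0.92 ± 0.079) was larger than that on soft (-0.25 ± 0.074), with a difference of -0.67 ± 0.11 (adjusted p = 1.99e-07).

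The 10 genes of lower glycolysis, from aldolase to pyruvate kinase, held most of the RNA of the pathway: their sum went from 18700 ± 93.7 TPM in Soft to 29750 ± 123 in Soft-TW, and from 14800 ± 188 in Stiff to 29790 ± 14.2 in Stiff-TW. Of the 10, 9 rose and 1 fell in Soft-TW against Soft, and 8 rose and 1 fell in Stiff-TW against Stiff. The gene that fell was Eno3 in both. Aldoc, with few counts, was among the 9 on soft and was not called on stiff. With mito, 8 rose and none fell on each matrix. Relative to Soft, 8 were lower and none higher in Stiff. Of all tested genes, 28.9% rose and 28.0% fell with TW on soft, and 35.5% and 34.1% on stiff. With mito, 14.8% of all tested genes rose and 11.9% fell on soft, and 15.6% and 17.8% on stiff. In Stiff, 24.7% of all tested genes were lower and 29.1% higher than in Soft.

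Gapdh, the dehydrogenase that yields NADH, was the most abundant member. It stood at 7476, 7662 and 7715 TPM in Soft, 8178, 8037 and 8068 in Soft+mito and 14198, 14149.9 and 14261 in Soft-TW. On stiff it stood at 6522, 6313 and 6452 TPM in Stiff, 7574, 7592 and 7599.9 in Stiff+mito and 15149.6, 15106 and 15119.7 in Stiff-TW. Stiff-TW was 2.46-fold above Stiff (log2 1.30 ± 0.017, adjusted p = 8.24e-89) and Soft-TW 2.01-fold above Soft (log2 1.00 ± 0.017), so this gene, often used as a loading control, was not constant in these cells. Pgk1, the kinase that makes ATP next, stood at 1377, 1375 and 1345 TPM in Soft and 2526, 2533 and 2570.1 in Soft-TW, and at 1038, 1055 and 1051 in Stiff and 2680.2, 2697 and 2732 in Stiff-TW. The TW libraries of Pgk1 lay above all others, and the rise was 1.01 ± 0.019 on soft and 1.42 ± 0.019 on stiff, a difference of 0.42 ± 0.027 (adjusted p = 1.44e-26).

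Aldoa, the aldolase of muscle and most tissues, stood at 1983, 1985 and 1959 TPM in Soft, 2145, 2153 and 2173 in Soft+mito and 3367, 3305 and 3349 in Soft-TW. In the stiff groups it stood at 1528, 1497 and 1513 TPM in Stiff, 1996, 1999 and 2011 in Stiff+mito and 3306, 3256 and 3271 in Stiff-TW. The TW groups overlapped each other and were not called, although Stiff lay below Soft (log2 -0.31). Aldoc, the brain aldolase, was near the limit of counting, at 0.04 to 0.51 TPM per library, and its calls in Soft-TW (1.73), Stiff+mito against Soft+mito and the TW interaction rest on few counts. Tpi1, which interconverts the triose phosphates, rose with TW by 0.61 and 0.77. Pgam1, the mutase before enolase, stood at 956, 994 and 969 TPM in Soft and 1580.1, 1561 and 1605 in Soft-TW, and at 696, 706 and 694 in Stiff and 1405, 1419.6 and 1399.6 in Stiff-TW. The Pgam1 groups did not overlap, and Stiff lay below Soft (log2 -0.40 ± 0.02).

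The 3 enolases, which act on the same step, moved in different ways. Eno1, the general isozyme, stood at 1156, 1120.3 and 1112 TPM in Soft, 1281, 1254 and 1263 in Soft+mito and 1341, 1323 and 1315 in Soft-TW. On the stiff matrix the values were 657, 655 and 663 TPM in Stiff, 742, 761 and 768 in Stiff+mito and 1060.2, 1099 and 1106 in Stiff-TW. All Stiff libraries lay below all others, and the fall from Soft to Stiff, -0.70 ± 0.02 (adjusted p = 2.79e-57), was the largest of any member between the matrices alone. With TW it rose by 0.34 on soft and 0.78 on stiff, a difference of 0.44 ± 0.027. Reads of Eno1 can be shared with Eno1b, a near-identical copy listed at 851 ± 9.89 TPM in Soft, so the level of Eno1 is uncertain; with the counts of both summed, all 9 comparisons kept their direction and call.

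Eno2, the neuronal isozyme, was low but had the largest rise. It stood at 15.7, 16.5 and 16.1 TPM in Soft, 17.2, 16.2 and 16.9 in Soft+mito and 83.9, 82.3 and 84.7 in Soft-TW. The stiff values were 16.2, 16.1 and 15.8 TPM in Stiff, 23.6, 23.4 and 21.4 in Stiff+mito and 86.1, 88.3 and 88.9 in Stiff-TW. No other group came near the TW libraries: the rise was 5.67-fold on soft (log2 2.50 ± 0.042, adjusted p = 2.71e-79) and 5.81-fold on stiff (log2 2.54 ± 0.042), and the 2 rises differed by 0.03 ± 0.066 (adjusted p = 0.741). With mito, Eno2 rose on stiff by 0.52 ± 0.054 (adjusted p = 4.79e-14); the rise on soft, 0.15, was lost with DESeq2, with library totals, on log2(TPM + 1), without the filter on low counts and in a fit of those groups alone. Of the neuron markers, Snap25 and Rbfox3 were at most 0.05 TPM in any library, and nearly all of the list's level was Tubb3 (group means from 6.77 to 8.69 TPM) and Map2 (4.67 to 7.24 TPM). Both were called higher in Stiff-TW than in Stiff (0.40 and 0.37) and neither was called in Soft-TW against Soft (-0.01 and -0.11), with interactions of 0.41 and 0.48. Map2 also rose in Stiff+mito against Stiff (0.39). The summed level of the 5 markers was 14.0 to 14.4 TPM in Soft and 12.3 to 13.6 in Soft-TW, and 12.0 to 12.6 in Stiff and 14.6 to 16.5 in Stiff-TW; the part of these markers in the result on Eno2 was not tested.

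Eno3, the muscle isozyme, went the other way, from 295 ± 7.42 TPM in Soft to 211 ± 10.5 in Soft-TW and from 258 ± 2.34 in Stiff to 179 ± 6.36 in Stiff-TW, log2 changes of -0.35 ± 0.027 and -0.41 ± 0.029. It had no call with mito. The muscle markers Ckm, Acta1, Myh1, Ttn and Des summed to 2.32 to 3.35 TPM in Soft and 2.04 to 2.31 in Soft-TW, and to 2.45 to 3.32 in Stiff and 2.00 to 2.77 in Stiff-TW. As shares of the 3 enolases, Eno2 went from 1.12 ± 0.0468% in Soft to 5.16 ± 0.111% in Soft-TW and from 1.72 ± 0.0266% in Stiff to 6.48 ± 0.0483% in Stiff-TW, and Eno3 from 20.5 ± 0.456% to 13.0 ± 0.458% and from 27.7 ± 0.168% to 13.2 ± 0.176%. The shares are of TPM, which is per length. As shares of estimated counts, which also weigh length, Eno2 was 8.45% in Soft-TW, and the direction was the same. Eno1b is not in the sum, so the size of the shares is as uncertain as the level of Eno1.

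**Figure D3:**
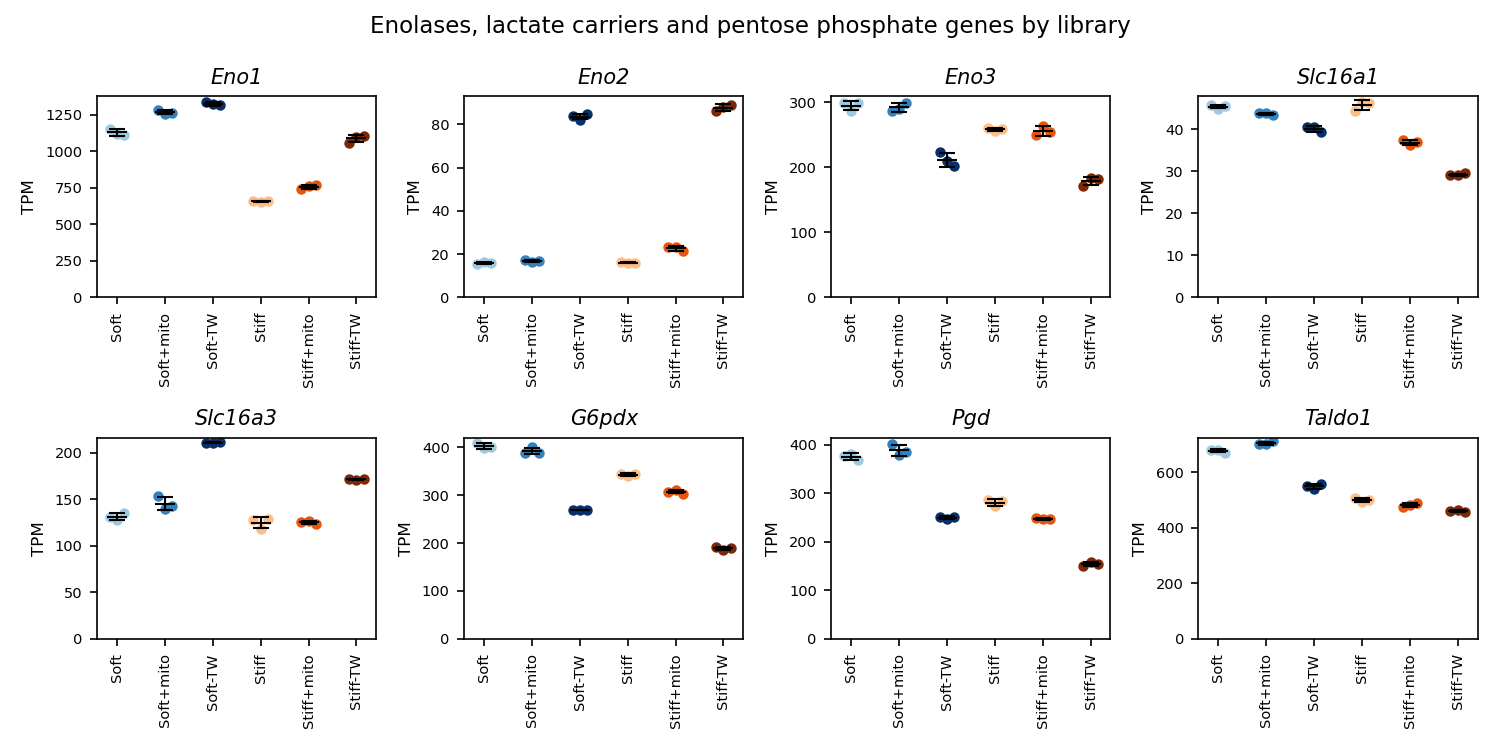
TPM in each library (points) with the group mean and SD for the 3 enolases, both lactate carriers and 3 pentose phosphate genes; each vertical axis starts at 0. Eno2 jumps to between 82.3 and 88.9 TPM in the TW libraries while Eno3 and G6pdx are lowest there, and Pgd and Slc16a1 are lowest in Stiff-TW.

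Pkm makes pyruvate and ATP, and its M1 and M2 isoforms use 1 of 2 mutually exclusive exons. Pkm stood at 3945 ± 5.59 TPM in Soft, 4514 ± 32.7 in Soft-TW, 3078 ± 50.3 in Stiff and 4117 ± 18.3 in Stiff-TW, with rises of 0.30 and 0.47, smaller than those of Gapdh or Pgk1. The 2 exons are 167 bases each, lie on chromosome 9 of GRCm38 as exon 9 of 11 in a reference transcript of each isoform (GENCODE M21), and are 61.7% identical; capitals mark the 64 positions that differ.
Pkm M1 exon (chr9:59675029-59675195, + strand): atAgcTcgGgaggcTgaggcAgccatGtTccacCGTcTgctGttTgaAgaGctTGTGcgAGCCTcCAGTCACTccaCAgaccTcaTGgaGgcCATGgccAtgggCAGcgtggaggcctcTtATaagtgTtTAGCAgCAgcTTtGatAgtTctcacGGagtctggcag
Pkm M2 exon (chr9:59675568-59675734, + strand): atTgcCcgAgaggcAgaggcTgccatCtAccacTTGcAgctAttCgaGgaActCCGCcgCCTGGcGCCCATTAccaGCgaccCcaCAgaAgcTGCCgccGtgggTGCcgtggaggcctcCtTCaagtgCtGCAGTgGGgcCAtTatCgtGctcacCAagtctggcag

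The reference transcript of M1 made up 17.2, 17.0 and 16.8% of Pkm TPM in Soft. It made up 17.8, 16.9 and 16.5% in Soft+mito and 18.6, 18.7 and 17.8% in Soft-TW. On the stiff matrix it made up 13.6, 14.1 and 14.1% in Stiff, 14.6, 15.5 and 15.4% in Stiff+mito and 14.3, 14.6 and 14.7% in Stiff-TW. All stiff libraries lay below all soft ones. Of 15 Pkm transcripts, those other than the reference M1 and M2 transcripts held 0.425% to 0.831%, and their exons were not checked. The M2 form, typical of growing cells, was the main one throughout, at 82.3 ± 0.181% in Soft and 85.4 ± 0.421% in Stiff. The shares rest on the authors' split of reads between nearly identical transcripts, and are described without a test.

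**Figure D4:**
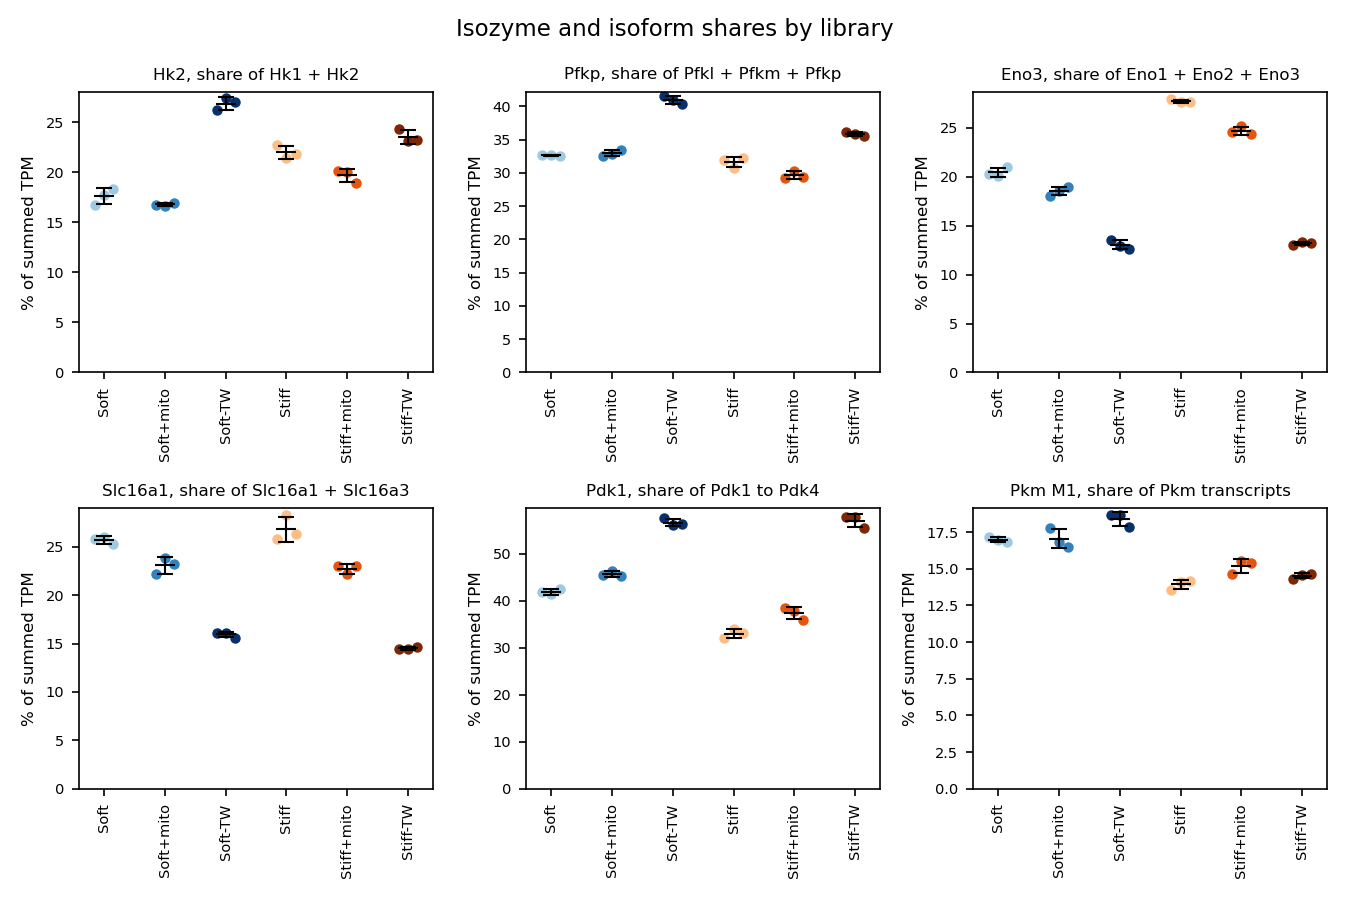
Share of a family's summed TPM, in percent, held by 5 isozymes and by the reference M1 transcript of Pkm. Points are libraries, with the group mean and SD. Eno1b is not in the enolase sum. Each vertical axis starts at 0. Hk2, Pfkp and Pdk1 take a larger share and Eno3 and Slc16a1 a smaller one in the TW groups, and the M1 share is lower on the stiff matrix in every library.

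Ldha makes lactate from pyruvate, and Ldhb favours the reverse. Ldha stood at 1771, 1755 and 1751 TPM in Soft, 1987, 1984 and 1994 in Soft+mito and 2705, 2656 and 2713 in Soft-TW. The stiff values were 1251, 1239.5 and 1219 TPM in Stiff, 1383, 1405 and 1402 in Stiff+mito and 2215, 2229 and 2243 in Stiff-TW. No 2 groups of Ldha overlapped. It was lower on stiff in all 3 pairs of groups, at -0.44 alone, -0.52 with mito and -0.25 with TW, and with TW it rose by 0.72 ± 0.018 on soft and 0.91 ± 0.018 on stiff. With mito it rose by 0.27 ± 0.018 on soft and 0.19 ± 0.019 on stiff. Ldhb stood at 1.40 to 4.06 TPM per library and was called once, at 0.71 in Stiff+mito against Soft+mito, a call lost with DESeq2.

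The lactate carriers moved apart. Slc16a1 encodes MCT1, which carries lactate both ways, and Slc16a3 encodes MCT4, the export carrier of glycolytic cells. Slc16a3 stood at 131, 128 and 135 TPM in Soft and 210.4, 211 and 212 in Soft-TW, and at 128, 118 and 129 in Stiff and 172, 171 and 172 in Stiff-TW. Its rise was 0.79 ± 0.026 on soft and 0.50 ± 0.027 on stiff, a difference of -0.29. Slc16a1 stood at 45.6, 44.9 and 45.6 TPM in Soft and 40.5, 40.5 and 39.2 in Soft-TW, and at 44.4, 46.5 and 46.3 in Stiff and 29.0, 29.0 and 29.5 in Stiff-TW. On the stiff matrix it fell with TW (log2 -0.61) and with mito (log2 -0.31), while on soft neither condition passed the threshold (-0.07 and 0.04); the TW fall on soft did pass with library totals, on log2(TPM + 1) and without the filter on low counts, at -0.12, -0.18 and -0.081. The interactions with the matrix were -0.54 ± 0.045 for TW (adjusted p = 2.45e-19) and -0.35 ± 0.044 for mito (adjusted p = 1.98e-10). The share of Slc16a3 in the sum of both went from 74.3 ± 0.386% to 84.0 ± 0.28% on soft and from 73.2 ± 1.31% to 85.5 ± 0.134% on stiff. Bsg, the chaperone of both carriers, rose with TW by 0.78 and 0.85.

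The 3 pyruvate dehydrogenase kinases that were tested rose in both TW comparisons, as did 23.7% of all tested genes. Pdk1, a known hypoxia target, stood at 26.6, 25.3 and 25.9 TPM in Soft, 29.8, 30.5 and 29.3 in Soft+mito and 55.8, 57.0 and 56.5 in Soft-TW. On stiff it stood at 17.9, 19.5 and 18.5 TPM in Stiff, 25.2, 23.9 and 23.4 in Stiff+mito and 63.5, 61.0 and 58.7 in Stiff-TW. The TW libraries lay above all others, and the rise of 3.35-fold on stiff (log2 1.75 ± 0.033, adjusted p = 7.48e-74) exceeded that of 2.35-fold on soft (log2 1.23 ± 0.032) by 0.51 ± 0.048. Pdk2 rose with TW by 0.69 and 0.52 and with mito on stiff by 0.47, and Stiff+mito was 0.98 above Soft+mito. Pdk3 rose with TW by 0.24 and 0.32. In the TPM of the 4 kinases, the share of Pdk1 went from 41.9 ± 0.616% in Soft to 56.7 ± 0.762% in Soft-TW and from 33.0 ± 0.931% in Stiff to 57.1 ± 1.31% in Stiff-TW.

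Of the 7 pentose phosphate genes, 1 rose and 4 fell in Soft-TW against Soft, and 2 rose and 5 fell in Stiff-TW against Stiff. Of all tested genes, 28.9% rose and 28.0% fell in the first comparison, and 35.5% and 34.1% in the second. G6pdx, the entry enzyme and main source of NADPH, stood at 409, 399 and 401 TPM in Soft, 388, 401 and 389 in Soft+mito and 269.8, 269 and 269 in Soft-TW. On stiff it stood at 345, 340.1 and 344 TPM in Stiff, 308, 311 and 304 in Stiff+mito and 191, 185 and 190.4 in Stiff-TW. The log2 changes with TW were -0.47 ± 0.021 on soft and -0.81 ± 0.022 on stiff (adjusted p = 5.37e-59), with a difference of -0.34 ± 0.031. Pgd, the phosphogluconate dehydrogenase and the other NADPH step, stood at 377, 381 and 368 TPM in Soft, 402, 378 and 384 in Soft+mito and 252, 246 and 250.3 in Soft-TW. Its stiff values were 286, 273 and 283 TPM in Stiff, 249.8, 246 and 247 in Stiff+mito and 149.6, 158 and 153 in Stiff-TW. The Stiff-TW libraries of both genes were the lowest of all 18, and the log2 change of Pgd with TW was -0.48 ± 0.022 on soft and -0.82 ± 0.024 on stiff.

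With mito the 2 NADPH genes fell on stiff, by log2 changes of -0.15 for G6pdx and -0.18 for Pgd. On soft, G6pdx was called slightly higher (0.06), a call that became -0.04 on log2(TPM + 1), and Pgd was called 0.14 higher with overlapping libraries, a call lost on log2(TPM + 1). The interaction of mito and matrix was -0.21 ± 0.03 for G6pdx and -0.32 ± 0.032 for Pgd (adjusted p = 1.09e-08 and 1.67e-14). Taldo1, a transaldolase of the non-oxidative arm, stood at 681, 681 and 671 TPM in Soft, 550.4, 539 and 558 in Soft-TW, 508, 494 and 499 in Stiff and 460, 464 and 456 in Stiff-TW. All Stiff and Stiff-TW libraries lay below those of the soft groups. With TW it changed by -0.20 on soft and -0.05 on stiff, and the second call was lost without either of 2 libraries. Tkt, the transketolase, was nearly level, from 167 to 188 TPM in the group means, with rises of 0.17 in Stiff-TW and 0.14 in Stiff+mito against Stiff; a call of 0.07 in Soft+mito turned to -0.028 on log2(TPM + 1). Pgls, the lactonase, rose with TW by 0.13 and 0.22, of which the first was lost with DESeq2, with library totals and on log2(TPM + 1). Rpia and Rpe, which interconvert pentose phosphates, changed by -0.42 and -0.29 in Stiff-TW against Stiff. Rpia also changed by -0.22 in Soft-TW, -0.24 in Soft+mito and -0.22 in Stiff+mito, all 3 calls being lost with DESeq2.

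The difference between the matrices in the size of the rise with TW was tested as an interaction. It was positive, a larger rise or smaller fall on stiff, for 13 members and negative for 10, where 16.4% and 19.7% of all tested genes were called, with a member median of 0.0673 beside -0.00653. Most of lower glycolysis, 7 of 10 genes, was positive, while Slc2a1, Hk2, both lactate carriers and G6pdx, Pgd and Tigar were negative. On log2(TPM + 1) the split of all genes was 2589 positive to 1577 negative, in place of 2004 to 2417. For mito the interaction was positive for 6 members and negative for 8 (10.4% and 13.1% of all genes, member median -0.0144 beside -0.00502). That split turned to 11 and 7 with library totals and to 10 and 5 on log2(TPM + 1), and that of all genes from 1278 and 1610 to 1641 and 1185 with library totals and to 2078 and 535 on log2(TPM + 1). The largest were Pfkm (0.52) and Pdk2 (0.52) upward and Slc16a1 (-0.35) downward.

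**Figure D5:**
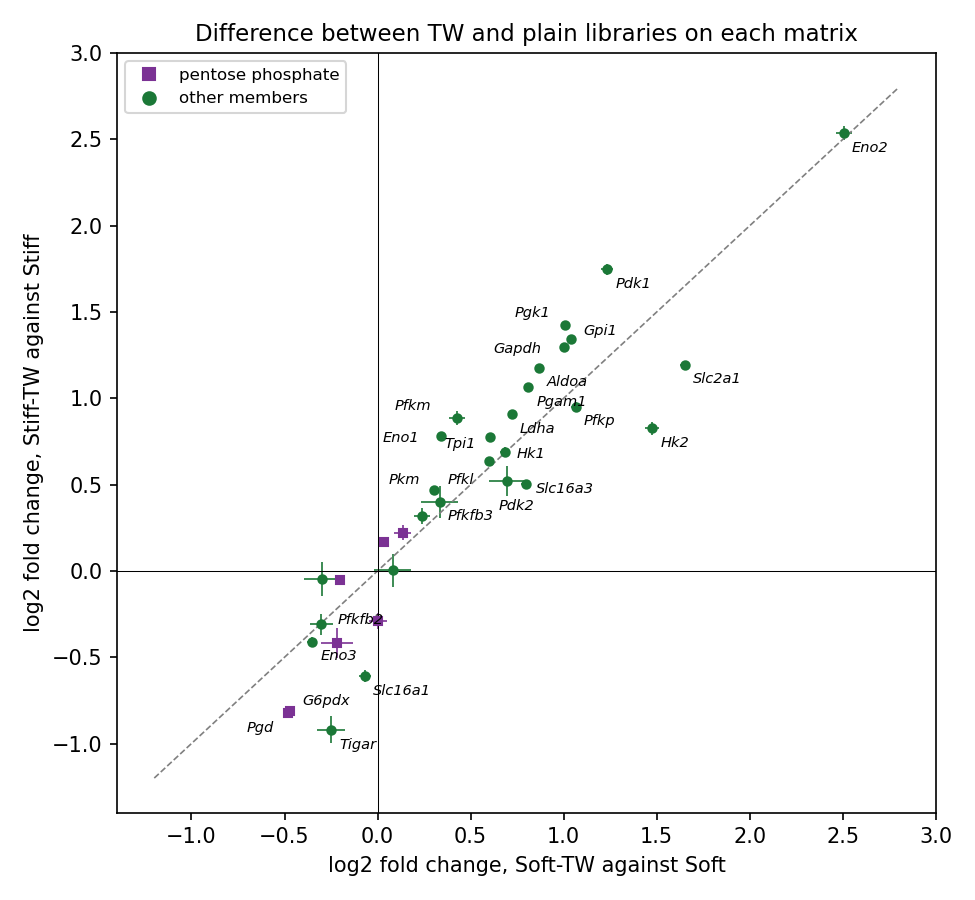
Log2 fold change of 34 members with TW on the soft matrix (horizontal) and on the stiff matrix (vertical), with approximate standard errors; squares are pentose phosphate genes and the dashed line marks equal change. Eno2 lies at 2.50 and 2.54, Slc2a1 and Hk2 lie below the line, Pdk1 and Pgk1 above it, and G6pdx and Pgd lie at the lower left.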

How the data were processed

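Poly(A) or rRNA-depleted RNA, per the labels' protocols, was sequenced as strand-specific paired reads in 18 libraries. The deposited table gives estimated counts (expected counts, 10.9% not whole at a tolerance of 0.001) and TPM per gene and transcript, per the file headers. The build is mm10, per the submitters' processing notes; the aligner, the quantifier and the annotation have no entry in the sources used here. Not used were 36 columns in other units and 44 averages in the gene table.

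Counts were rounded and tested with edgeR 4.0.16 (quasi-likelihood, robust, TMM, filterByExpr, R 4.3.3) in 1 model of 6 groups, with 12245 genes tested. P-values were adjusted by Benjamini-Hochberg over all of them, and a gene is called at an adjusted p under 0.05. The standard error is the absolute log2 change over the root of F. The script was tested on simulated data. Levels are the deposited TPM, with SD over 3 libraries. Members and lists were chosen with earlier results of these data known. Values by library are given for members with a mean of at least 10 TPM among the 5 largest called changes of any comparison. They are also given for the leading isozyme of a family. These values cover the plain and TW groups, and for only some members the mito groups. Of the other lists, up to 4 genes each with the smallest adjusted p are given, and some fixed genes. Mpc1, Mpc2 and Arrdc4, also fixed by the plan, are not described here. Alternatives were DESeq2 1.42.0, library totals, no filter, only the groups compared, a replicate block, each library left out, and, added after seeing the data, limma 3.58.1 on log2(TPM + 1), a 1.5-fold minimum and Eno1 summed with Eno1b. Same-numbered libraries did not deviate together (correlations from -0.108 to 0.101). Pkm isoforms were matched by exon rather than by product name, and protein identity was not analysed here. Promoters are from RefSeq and exons from GENCODE M21. Figures were drawn with matplotlib 3.10.9.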

Additional observations from a re-analysis of the deposited data

Results flagged for a closer look

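The response to mito or to TW differed between the matrices for the members below. Each value is the interaction of edgeR, the log2 change on stiff minus that on soft, at an adjusted p under 0.05 over all tested genes.

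With mito, the change on stiff exceeded that on soft for Pfkm (0.52), Pdk2 (0.52), Eno2 (0.37), Gpi1 (0.25), Aldoa (0.20) and Gapdh (0.07). It was below that on soft for Slc16a1 (-0.35), Pgd (-0.32), Tigar (-0.31), Slc16a3 (-0.24), G6pdx (-0.21), Taldo1 (-0.19), Slc2a1 (-0.15) and Ldha (-0.08). The call of Gapdh was lost when any of 5 libraries was left out. That of Ldha was lost with library totals, on log2(TPM + 1), in a fit of the groups compared and without 1 library.

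With TW, the change on stiff exceeded that on soft for Pdk1 (0.51), Pfkm (0.46), Eno1 (0.44), Pgk1 (0.42), Aldoa (0.31), Gpi1 (0.30), Gapdh (0.29), Pgam1 (0.26), Ldha (0.19), Tpi1 (0.17), Pkm (0.16), Taldo1 (0.15) and Tkt (0.14). It was below that on soft for Aldoc (-1.78), Tigar (-0.67), Hk2 (-0.65), Slc16a1 (-0.54), Slc2a1 (-0.45), G6pdx (-0.34), Pgd (-0.34), Rpe (-0.29), Slc16a3 (-0.29) and Pfkp (-0.11). Aldoc, with few counts, lost its call when any of 7 libraries was left out, and Pfkp lost its call on log2(TPM + 1) and without 1 library.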

How the results depend on the processing

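With a minimum change of 1.5-fold, chosen after seeing the data, 17 members were called in Soft-TW against Soft (all higher), 21 in Stiff-TW against Stiff (17 higher, 4 lower), 1 in Stiff-TW against Soft-TW (lower) and 3 in the TW interaction (all negative). Of all tested genes, 6.08% and 1.96% passed it as higher and lower in the first, 10.6% and 7.42% in the second, 4.43% and 1.88% in the third and 2.32% and 2.21% in the interaction. Fewer genes can pass such a minimum by its construction. Taken from estimated counts, which also weigh gene length, 109 of 126 isozyme and isoform shares moved by more than 1 SD, among them Hk2, at 22.9% in Soft, 34.0% in Soft-TW, 28.2% in Stiff and 30.1% in Stiff-TW. With TW the shares of Hk2, Pfkp, Slc2a1, Slc16a3, Pdk1, Eno2 and Eno3 kept their direction on both matrices, and the M1 share of Pkm moved by less than 1 SD in each group. On log2(TPM + 1), also added after seeing the data, the sign turned for Slc2a1 (-0.073) and Pdha1 (-0.013) in Stiff against Soft, for G6pdx (-0.038), Tkt (-0.028) and Hif1a (-0.025) in Soft+mito against Soft, and for Tkt (-0.079) and Akr1b8 (-0.0092) in Soft-TW against Soft. The cause was not tested. The member median of the mito interaction turned positive with library totals (0.014), on log2(TPM + 1) (0.058), without Soft replicate 3 (0.024) and without Stiff+mito replicate 2 (0.0076), and ran from -0.0501 to 0.024 over the libraries left out in turn. Leaving out each library moved the count of called members to 20 to 23 in Soft+mito against Soft, 29 to 32 in Soft-TW against Soft, 22 to 24 in Stiff against Soft and 13 to 16 in the mito interaction. With a replicate block the counts of called members were 23 in Stiff against Soft, 24 in Soft+mito against Soft and 31 in Soft-TW against Soft, as without it, and the block changed no other call of a member. Correlations of same-numbered libraries ran from -0.108 to 0.101, so the numbers give no pairing. Members with few counts, namely Aldoc, Ldhb, Pfkfb1 and Pdk4, are limited by depth.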

Other observations

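Genes beside the pathway were described from lists of related genes. The pyruvate entry list holds the mitochondrial pyruvate carrier, the pyruvate dehydrogenase complex, its phosphatase and pyruvate carboxylase. Of its 11 genes, 3 rose and 5 fell in Soft-TW against Soft, and 3 rose and 7 fell in Stiff-TW against Stiff. Beside these and the counts that follow stand the shares of all tested genes, of which 28.9% rose and 28.0% fell in Soft-TW against Soft, and 35.5% rose and 34.1% fell in Stiff-TW against Stiff. Among the complex's subunits, Pdhx had log2 changes of -0.47 on soft and -0.68 on stiff, Pdhb of -0.23 and -0.48, and Dld of -0.14 and -0.40. The 3 pyruvate entry genes that rose in each comparison, and Mpc1 and Mpc2, are not described singly. Of 12 glycogen genes tested, 5 rose and 3 fell on soft, and 7 rose and 2 fell on stiff. The glycogen genes that fell are not described singly. Gys1, the glycogen synthase, rose by 1.19 and 1.34, Pgm1, which links glucose phosphates to glycogen, by 1.13 and 1.26, and the branching enzyme Gbe1 by 0.67 and 0.56.

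Of 12 regulators tested, 8 rose and 3 fell with TW on soft, and 6 rose and 3 fell on stiff. The 3 regulators that fell on soft are not described singly. The oxygen-sensing prolyl hydroxylases Egln1 and Egln3 rose by 1.15 and 1.59 and by 1.20 and 1.59. Hif1a, which encodes a hypoxia-inducible factor, rose by 0.51 and 0.38. Txnip, an inhibitor of glucose uptake that responds to glucose, rose with TW by 1.11 and 0.78 and was 1.36 higher in Stiff than in Soft. Myc had log2 changes with TW of 0.21 on soft and -0.17 on stiff, and was 0.58 higher in Stiff than in Soft.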
